A study of Mus musculus with 3 samples.

Results

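The Prg4/Cilp cells are cells of 3-week-old mouse long bone that carried mRNA of Prg4 or Cilp together with mRNA of at least 1 of the cartilage genes Acan, Col2a1 and Comp. Among 11242 cells kept in a droplet library of Pdgfra-GFP+ cells, they were chosen by their own counts, as cells with at least 5 unique molecular identifiers (UMIs, each a captured mRNA molecule) of Prg4 and Cilp together and at least 5 of Acan, Col2a1 and Comp together. At most 1 UMI of the endothelial genes Pecam1 and Cdh5 and at most 1 of the haematopoietic genes Laptm5 and Tyrobp was allowed. This gave 634 cells, 5.64% of the library (exact 95% binomial interval 5.22 to 6.08%). They carried the label of superficial chondrocytes. At least 3 of the 4 markers given for that label outside the rule were detected in 255 of the 333 cells with more Col2a1 than Col1a1 and in 37 of the other 301, so the whole set is called Prg4/Cilp cells throughout. The markers and this division were chosen with results of these data known, so both counts are a description.

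The series examined stromal cells of the growing long bone. All mice were untreated and aged 3 weeks, labelled C57BL/6 (C57BL/6J for the wild types in the study's methods). The Pdgfra-GFP+ cells came from the digested metaphysis and epiphysis of femur and tibia of male heterozygous Pdgfra-H2B-GFP knock-in reporter mice, in which a nuclear histone-GFP fusion is made from the Pdgfra locus, and were sorted for GFP. A further 2 libraries held metaphyseal cells of wild-type males depleted of lineage-positive, CD45+ and CD117+ haematopoietic cells. The Pdgfra-GFP+ library had 91747759 UMIs, and the metaphyseal libraries had 25243314 and 22082735. The labels give 1 Pdgfra-GFP+ sample and do not say how many mice were pooled, so values within it could be neither checked on replicates nor tested, and every interval covers counting error only.

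Prg4 encodes lubricin, the glycoprotein that lets joint surfaces slide, and is made by cells of the superficial zone of articular cartilage, by the synovial lining and in tendon. Cilp encodes a matrix protein of articular cartilage that also occurs in tendon, ligament and meniscus. Type II collagen (Col2a1) and aggrecan (Acan) make the bulk of hyaline cartilage matrix, whereas type I collagen (Col1a1) dominates bone, tendon and fibrous tissue. Comp, the cartilage oligomeric matrix protein, is shared by cartilage and tendon.

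The chromosomal positions of the 6 genes given as markers of these cells were taken from a Gencode annotation of GRCm38. Prg4 lies at chr1:150449412-150466165 on the minus strand and Crispld1 at chr1:17727045-17766344 on the plus strand. Cilp (chr9:65265180-65280605), Cytl1 (chr5:37735519-37739820), Vit (chr17:78508064-78627408) and Chrdl2 (chr7:100006172-100034728) are on the plus strand. RefSeq promoter sequence of GRCm38.p6 was matched for 2 of the 6, Cilp, a gene of the rule, and Cytl1, a marker outside the rule. The 100 bases before each gene start are shown 5′ to 3′, with capitals marking a TATATAA or TATTTAA run and, for Cilp, a CAGCTG run. The Cilp bases are chr9:65265080-65265179 and the Cytl1 bases are chr5:37735419-37735518, both on the plus strand.
Cilp: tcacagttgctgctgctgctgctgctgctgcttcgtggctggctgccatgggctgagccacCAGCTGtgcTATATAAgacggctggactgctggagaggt
Cytl1: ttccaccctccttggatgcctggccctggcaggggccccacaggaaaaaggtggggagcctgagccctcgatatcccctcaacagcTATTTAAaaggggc
Over 32851 RefSeq promoters, the same window held TATATAA in 1.39%, TATTTAA in 1.504% and CAGCTG in 5.81%, counted on both strands. These matches describe letters and not binding sites.

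The 2 genes of the rule were unevenly spread over the cells. Prg4 ranged from 0 to 864 UMIs per cell with a median of 27, and reached 5 UMIs by itself in 577 cells (91.0%). Cilp ranged from 0 to 113 with a median of 3 and reached 5 UMIs by itself in 289 cells (45.6%). Both reached 5 UMIs in 244 cells, and in 12 cells only their sum did. Prg4 with at most 1 Cilp UMI was found in 266 cells (42.0%), at least 3 UMIs of each in 302 (47.6%), and Cilp with at most 1 Prg4 UMI in 25. The other 41 cells fell between these classes.

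**Figure D1:**
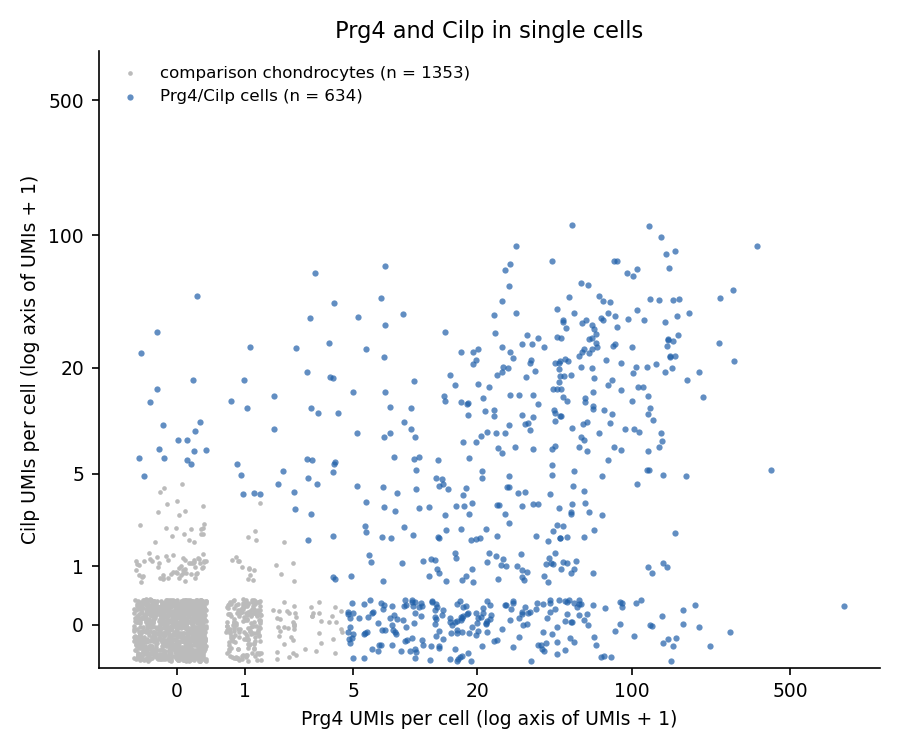
Prg4 (x axis) and Cilp (y axis) UMIs per cell, both on a log axis of UMIs + 1 with points jittered, for the 634 Prg4/Cilp cells (blue) and the 1353 comparison chondrocytes (grey). The diagonal edge between the colours is the rule itself, and the blue points run from Prg4 without Cilp along the lower edge to cells rich in both.

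Cells near the limit had less Cytl1 and more Matn3 than the bulk of the set. The 41 cells with 5 or 6 UMIs of Prg4 and Cilp had Cytl1 at 1017 CPM (counts per 1000000 UMIs summed over the cells). The 84 cells with 3 or 4 UMIs that otherwise passed the rule had 471 CPM. The 424 cells with 20 or more had 14425 CPM. Matn3, a cartilage matrilin, was at 1261 CPM just inside the limit, 1229 CPM just outside it and 74.7 CPM in the cells with 20 or more.

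The cells did not form a single type. Counts of Col2a1 and Col1a1, the collagen genes of hyaline and of fibrous tissue, parted them into separate clouds. Col2a1 exceeded Col1a1 in 333 cells (52.5%), and Col1a1 equalled or exceeded Col2a1 in 301 (47.5%). Only 22 cells (3.47%) had counts within 3-fold of each other after adding 1 UMI. This division was made after the values were seen, with Col2a1 itself part of the rule, so values of both classes are a description. In the Col2a1-rich cells the median was 179 Col2a1 UMIs (2 to 1787) and 5 Col1a1 UMIs (0 to 398) per cell. In the Col1a1-rich cells it was 2 Col2a1 UMIs (0 to 105) and 164 Col1a1 UMIs (4 to 1594). The median depths were 5806 and 5987 UMIs per cell. Scrublet called 5 and 9 of the cells doublets, but it called 1.49% of the library where 8.99% was expected, and the part of doublets was not tested.

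**Figure D2:**
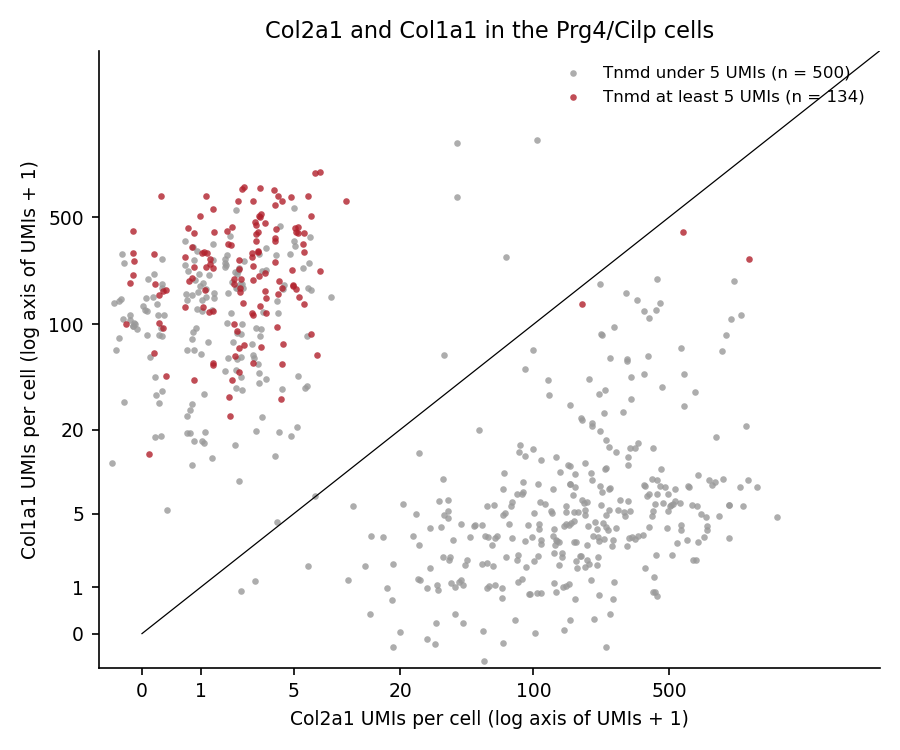
Col2a1 (x axis) and Col1a1 (y axis) UMIs per Prg4/Cilp cell, on log axes of UMIs + 1 with points jittered, and the line of equal counts. The 333 cells below the line and the 301 on or above it form separate clouds, and 131 of the 134 cells with at least 5 UMIs of the tendon gene Tnmd (red) lie in the upper one.

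The Col1a1-rich cells passed the cartilage condition mainly through Comp. Comp reached a median of 19 UMIs in both classes. Acan and Col2a1 together reached 5 UMIs in 331 of the 333 Col2a1-rich cells (99.4%) and in 116 of the 301 Col1a1-rich cells (38.5%). Free mRNA in the droplets bears on these low counts, since haematopoietic cells of the same library, which should lack cartilage genes, also held some. To compare shares at equal depth, each cell was thinned to 2000 UMIs. A Col2a1 UMI was then found in 50.5% of the Col1a1-rich cells (80.4% unthinned, median depth 5987) and in 51.2% of the haematopoietic cells (90.2% unthinned, median depth 7084). The Col1a1-rich class was cut by Col2a1 itself, so no conclusion is drawn from its Col2a1 share. Acan was found in 40.2% of the Col1a1-rich cells (70.1% unthinned) and 3.09% of the haematopoietic cells (10.7% unthinned), and Comp in 95.3% (97.7% unthinned) and 6.17% (19.6% unthinned). Acan, Col2a1 and Comp are genes of the rule. Of the 301 Col1a1-rich cells, 172 (57.1%) passed it with Acan and Col2a1 together under 5 UMIs and so by way of Comp. These shares were therefore set by the choice of cells and are given as a description.

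The 4 markers outside the rule followed the Col2a1-rich cells. Cytl1, a small secreted cytokine-like protein of cartilage, was at 18489 CPM (18309 to 18670.4) in the Col2a1-rich cells and 629 CPM (594 to 664) in the Col1a1-rich cells. Of the 301 Col1a1-rich cells, 232 had no Cytl1 UMI and 24 had at least 5. Crispld1, a secreted cysteine-rich protein, was at 1407 and 184 CPM. Vit, the matrix protein vitrin, was at 847 and 197 CPM. Chrdl2, a chordin-like antagonist of bone morphogenetic proteins (BMPs), was at 138 and 1.51 CPM, the latter from 3 UMIs. All 4 intervals lie apart between the classes. At 2000 UMIs, a Cytl1 UMI was found in 81.4% of the Col2a1-rich cells (87.1% unthinned), 15.9% of the Col1a1-rich cells (22.9% unthinned) and 2.47% of the haematopoietic cells (9.48% unthinned, median depths 5806, 5987 and 7084). At least 3 of the 4 markers were detected in 255 Col2a1-rich cells (76.6%) and in 37 Col1a1-rich cells (12.3%). Of the 1353 comparison chondrocytes described below, 310 had 3 (22.9%) and 7 had all 4 (0.517%), at a larger median depth of 9188 UMIs. These counts were not thinned to equal depth.

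The 2 classes differed by 316 genes higher (1.74% of 18188 tested) and 356 lower (1.96%) in the Col2a1-rich cells. Here and below, a gene is called higher or lower when its CPM differed at least 2-fold after adding 10 CPM to both and its 95% Poisson intervals lay apart. Snorc, a cartilage membrane proteoglycan, was at 5535 CPM in the Col2a1-rich and 96.6 CPM in the Col1a1-rich cells. Col9a3, a chain of the type IX collagen that coats cartilage fibrils, was at 3699.9 and 75.9 CPM. Ucma, a matrix protein of growth plate and articular chondrocytes, was at 1721 and 21.1 CPM. Of 10 columnar growth plate genes, 8 were higher and none was lower (median log2 ratio 2.79, against a median of 0 over all genes for the whole set of Prg4/Cilp cells). The immediate early and heat shock genes were all higher, 9 of 9 (median log2 ratio 1.93), with Fos at 1682 and 482 CPM and Jun at 630.1 and 157 CPM. Fos and Jun encode subunits of the AP-1 factor, which is switched on within minutes of a stimulus.

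Of 8 tendon and ligament genes, 4 were lower in the Col2a1-rich cells and 1 was higher (median log2 ratio -1.72). Fmod, also on that list, was at 4069 CPM in the Col2a1-rich and 3516 CPM in the Col1a1-rich cells, within 2-fold. Tnmd, the membrane protein tenomodulin of mature tenocytes, was at 56.9 CPM there and 1972 CPM in the Col1a1-rich cells, of which 131 had at least 5 UMIs. Thbs4, a thrombospondin of tendon and joint tissues, was at 541 and 3351 CPM. Kera, the keratan sulphate proteoglycan keratocan, was at 4.13 and 328 CPM. Scx, the transcription factor scleraxis of tendon precursors, had an interval of 7.06 to 16.4 CPM in the Col2a1-rich and 97.0 to 127 CPM in the Col1a1-rich cells. Of 12 synovial and bone surface fibroblast genes, 9 were lower and none was higher (median log2 ratio -2.25), among them S100a4, a calcium-binding protein of motile fibroblasts, at 201 and 2128 CPM. Of 21 matrix proteases and inhibitors, 9 were lower and none was higher (median log2 ratio -0.74). Type III collagen, Col3a1, was at 638 and 4532 CPM.

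Some genes were shared by both classes. Cilp2, a paralog of Cilp, was at 1389 CPM in the Col2a1-rich and 1464 CPM in the Col1a1-rich cells, against 317 CPM in the comparison chondrocytes described below. Sod3, the extracellular superoxide dismutase, was at 329 and 362 CPM, against 58.4. Frzb, a secreted Wnt antagonist first known from articular cartilage, was at 299 and 246 CPM, against 80.0. Fmod, the collagen-binding proteoglycan fibromodulin, was at 4069 and 3516 CPM, against 2765. Htra4, a secreted serine protease, was at 104 and 157 CPM against 0.780, with UMIs in 182 of all 634 cells and 48.7% of them in 10. Each of these 5 genes was above the comparison chondrocytes in both classes, Fmod by less than 2-fold.

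The 1353 comparison chondrocytes were kept cells with at least 2 Acan UMIs, at least 3 of Matn3 and Col9a1 together and fewer than 5 of Prg4 and Cilp. No limit on endothelial or haematopoietic genes applied to them. They were deeper, with a median of 9188 UMIs per cell against 5877 for the Prg4/Cilp cells, and include 338 cells with at least 5 UMIs of the resting zone genes Sfrp5, Efemp1 and Chil1 and 83 with at least 5 of the hypertrophic gene Col10a1. Of 18188 genes with a UMI in more than 10 kept cells, outside the 11 genes of the rules, 361 were higher in the Prg4/Cilp cells (1.98%) and 241 were lower (1.33%). Since clusters or gates cut from the same cells must differ in correlated genes, these counts are a description.

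**Figure D3:**
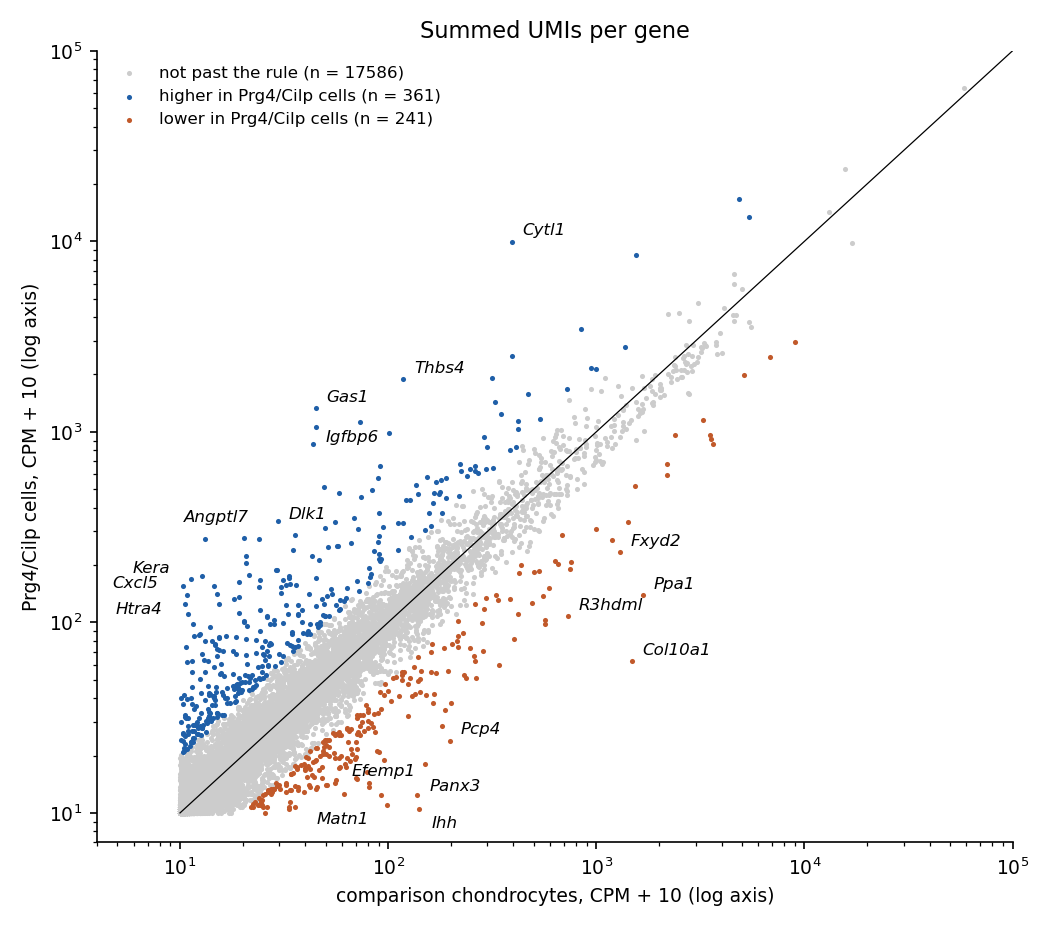
Summed UMIs of each of 18188 genes as CPM + 10, in comparison chondrocytes (x axis) and in the 634 Prg4/Cilp cells (y axis), both on log axes, with the line of equality. The 361 genes higher in the Prg4/Cilp cells (blue) include Cytl1 and Gas1 far above the line, and the 241 lower genes (orange) include Col10a1 and Ihh.

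Cytl1 and Gas1 had the largest log2 ratios (10 CPM added) among the named higher genes. Cytl1 was at 9964 CPM (9868 to 10060.0) in the Prg4/Cilp cells and 384 CPM (373 to 395) in the comparison chondrocytes, a ratio of 26.0 (25.2 to 26.7). Per cell it ranged from 0 to 1166 UMIs with a median of 1.5, since 275 cells had none. Gas1, a membrane co-receptor of hedgehog ligands, was at 1327 CPM (1292 to 1362) and 35.1 CPM (31.9 to 38.5), a ratio of 37.8 (34.3 to 41.7). Gas1 was spread widely, with a UMI in 534 of the 634 cells and 8.85% of its UMIs in the 10 richest. At 2000 UMIs per cell it was found in 70.0% of the Prg4/Cilp cells (84.2% unthinned, median depth 5877), 5.70% of the comparison chondrocytes (16.9% unthinned) and 7.41% of the haematopoietic cells (18.0% unthinned, median depth 7084). It was at 1793 CPM in the Col2a1-rich and 816 CPM in the Col1a1-rich cells.

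The other markers were less far apart. Crispld1 was at 823 against 288 CPM (ratio 2.86, 2.73 to 2.99) and Vit at 537 against 159 CPM. Chrdl2 was at 73.0 against 5.38 CPM, with 50.7% of its UMIs from 10 cells. At 2000 UMIs per cell, a Crispld1 UMI was found in 54.8% of the Prg4/Cilp cells (72.7% unthinned, median depth 5877), 37.1% of the comparison chondrocytes (73.6% unthinned, median depth 9188) and 1.54% of the haematopoietic cells (3.98% unthinned, median depth 7084). Vit was found in 52.5% (73.8% unthinned), 25% (58.2% unthinned) and 1.85% (7.95% unthinned).

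Among the further leading genes, several belonged mostly to the Col1a1-rich class. Igfbp6, a binding protein of insulin-like growth factor (IGF) II, was at 1045 against 34.8 CPM, and at 2077 CPM in the Col1a1-rich and 101 CPM in the Col2a1-rich cells. S100a4 was at 1121 against 63.1 CPM. Thbs4 was at 1882 against 108 CPM, a ratio of 17.4 (16.4 to 18.4). Mt2, a metal-binding metallothionein, was at 856 against 33.5 CPM, with 43.7% of its UMIs in 10 cells. Tppp3, a tubulin-binding protein of tendon sheath and synovium, was at 268 against 10.2 CPM, and Ptn, the growth factor pleiotrophin, at 264 against 14.0 CPM. Angptl7, a secreted angiopoietin-like protein, was at 264 against 3.20 CPM and was found in 84 cells, with 54.7% of its UMIs in 10. Kera was at 159 against 1.25 CPM and was found in 70 cells, with 47.8% of its UMIs in 10. Dlk1, a non-canonical Notch ligand, stood apart from these genes, at 329 against 19.6 CPM and at 430.3 CPM in the Col2a1-rich and 218 CPM in the Col1a1-rich cells.

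A few cells alone carried 3 of the leading genes. Cxcl5, a neutrophil-attracting chemokine, had 605 of its 608 UMIs in 1 Prg4/Cilp cell and was found in 4. Ccl2, a monocyte-attracting chemokine, had 573 UMIs in 1 cell and 99.6% of its UMIs in 10. Saa3, an acute phase protein, had 456 UMIs in 1 cell. At least 5 UMIs of Cxcl5, Ccl2, Saa3 and Cxcl1 together were found in 6 cells, and the 3 differences describe these cells and not the set.

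The lower genes were led by growth plate genes. Col10a1, the collagen of hypertrophic cartilage, was at 52.8 CPM in the Prg4/Cilp cells against 1474 CPM, and 84.5% of its UMIs in the Prg4/Cilp cells came from 10 of them. Ihh, the prehypertrophic signal Indian hedgehog, had 2 UMIs (0.480 CPM) against 131 CPM, a ratio of 274 with a counting interval of 75.6 to 2262. Matn1, the matrilin of growth plate cartilage, was at 0.960 against 88.7 CPM. Panx3, a channel protein of prehypertrophic chondrocytes, was at 2.40 against 128 CPM, and Efemp1, a fibulin, at 2.40 against 82.4 CPM. Ppa1, a pyrophosphatase, was at 130 against 1669 CPM, and at 865 CPM in barcodes under 100 UMIs. Fxyd2, a regulatory subunit of the sodium pump, was at 223 against 1292 CPM, and R3hdml, a secreted cysteine-rich protein, at 98.2 against 719 CPM. In the Prg4/Cilp cells, 58.0% of the Fxyd2 and 62.3% of the R3hdml UMIs came from 10 cells. Pcp4, Syt8, Car8, Il17b and Hist1h2ap were between 9.30-fold and 19.7-fold lower by ratio of CPM, Car8 least with 18.5 against 172 CPM and Il17b most with 3.60 against 70.9 CPM. Hist1h2ap and the globin genes have near-identical copies, so reads may be split among them. The globin genes Hba-a1 and Hbb-bt were also lower, at 87.9 against 558 and 49.9 against 332 CPM, but 85.7% and 84.6% of their UMIs in the comparison chondrocytes lay in 10 cells.

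Lists of genes drawn up for joint, growth plate and connective tissue were then counted against the background of 1.98% higher and 1.33% lower, with the median log2 ratio over all genes at 0. That background includes genes with few or no UMIs in both groups, which cannot pass after 10 CPM are added. Of the calls, 223 higher and 141 lower genes had at least 50 CPM. The share among such genes was not computed, so the background is a low reference for lists of well-expressed genes. Of 14 joint surface and articular cartilage genes, 10 were higher in the Prg4/Cilp cells and none was lower (median log2 ratio 1.58). Erg, the transcription factor of embryonic joint cartilage, was at 58.3 against 8.66 CPM. Creb5, the factor known to switch on Prg4 in the superficial zone, was at 152 against 9.21 CPM. Clu, the extracellular chaperone clusterin, was at 2137 against 990.4 CPM, and Abi3bp, a collagen-associated matrix protein, at 466 against 47.7 CPM. Dkk3, Sod3, Cilp2, Thbs4, Cd44 and Has1 made up the rest. Gdf5, the joint-forming growth factor, did not pass, at 29.8 against 49.1 CPM. The same was true of Htra1 (485 against 447 CPM), Wnt9a and Has2. The list summed to 7139 CPM in the Prg4/Cilp cells and 2068 CPM in the comparison chondrocytes, but to 3843 CPM in those with resting zone genes. Among the Col2a1-rich cells it was at 3459 CPM with Prg4 only and 9066 CPM with both genes of the rule, so its level was not particular to all Prg4/Cilp cells.

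Erg and Creb5 were higher in the Col2a1-rich class, at 80.4 and 203 CPM, than in the Col1a1-rich class, at 34.2 and 95.6 CPM. Clu followed, at 2921 and 1279 CPM. Dkk3, a secreted dickkopf-family protein, had the reverse order, at 45.5 and 142 CPM, as did Abi3bp at 244 and 709 CPM. Within the joint surface list, 4 genes were higher and 5 lower in the Col2a1-rich than in the Col1a1-rich cells (median log2 ratio -0.10).

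**Figure D4:**
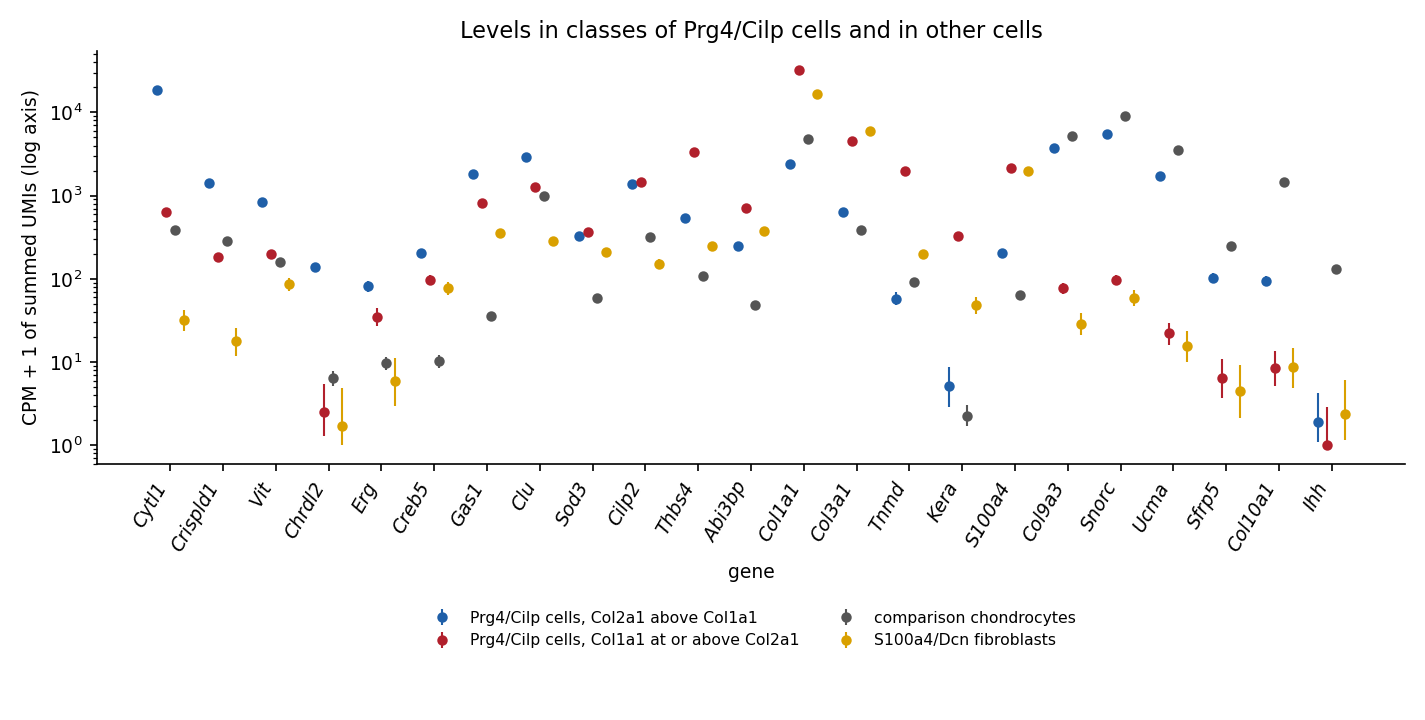
Levels of 23 genes as CPM + 1 of summed UMIs (log axis) in the Col2a1-rich (blue) and Col1a1-rich (red) Prg4/Cilp cells, the comparison chondrocytes (grey) and the S100a4/Dcn fibroblasts (yellow), with exact 95% Poisson intervals as bars. Cytl1, Crispld1, Vit and Chrdl2 are highest in blue, Tnmd, Thbs4 and Kera in red, and Gas1, Cilp2 and Sod3 lie above grey in both blue and red.

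The growth plate lists were mostly lower. Of 8 resting zone genes, 5 were lower (Sfrp5, Ucma, Spon1, Efemp1 and Chil1), and Gas1, which sits on that list too, was higher (median log2 ratio -1.95). The list summed to 5371 CPM in the Col2a1-rich cells, 1407 CPM in the Col1a1-rich cells and 5055 CPM in the comparison chondrocytes, so the lower sum of the whole set lay in the Col1a1-rich cells. Gene by gene, 5 of the 8 were also lower in the Col2a1-rich cells by themselves, with Gas1 and Wif1 higher. Sfrp5, a secreted Wnt antagonist, was at 56.4 against 249 CPM. Pthlh, the ligand PTHrP that holds chondrocytes short of hypertrophy, did not pass, at 38.6 against 63.1 CPM, nor did Wif1, a secreted Wnt inhibitor, at 1098 against 781 CPM. Of 10 columnar genes, 9 were lower (median log2 ratio -1.69), among them Hapln1, which links aggrecan to hyaluronan, at 585 against 2169.9 CPM, and Snorc at 2939 against 9007 CPM. The comparison chondrocytes were chosen for Matn3 and Col9a1, columnar genes left out of this count. The direction of the columnar list was therefore in part set by the choice of cells. Of 10 hypertrophic genes, 8 were lower (median log2 ratio -1.91), among them Ibsp, the bone sialoprotein gene, at 958 against 3503 CPM.

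The Col2a1-rich cells by themselves also differed from the comparison chondrocytes, by 235 genes higher (1.29%) and 200 lower (1.10%). All 4 markers were higher, as were 8 of 14 joint surface genes with none lower. Grem1, a BMP antagonist, was at 400.5 against 25.6 CPM. Pcp4l1, a small protein related to Pcp4, was at 150 against 1.56 CPM, and Cd14, a lipopolysaccharide co-receptor, at 153 against 3.98 CPM with 42.9% of its UMIs in 10 cells. Of the 8 resting zone genes, Gas1 and Wif1 were higher and 5 lower. Of the columnar list 5 of 10 genes were lower, of the hypertrophic list 8 of 10, and of the cell cycle list 9 of 10, with none higher. The choice of the comparison chondrocytes by Matn3 and Col9a1 bears on the columnar count. On the tendon list 1 gene was higher and 1 lower.

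The Col1a1-rich cells differed from the comparison chondrocytes by 565 genes higher (3.11%) and 417 lower (2.29%). None of the 4 markers passed in either direction, and all 10 columnar genes were lower (median log2 ratio -3.81). That direction was in part set by choosing the comparison chondrocytes for Matn3 and Col9a1 and by cutting the class with Col2a1. Of 14 joint surface genes, 9 were higher and 1 was lower (median log2 ratio 1.92). Of 12 synovial and bone surface fibroblast genes, 9 were higher and none was lower (median log2 ratio 2.22). Against 196 fibroblasts of the same library with at least 3 S100a4 and 5 Dcn UMIs and no Acan UMI, 246 genes were higher (1.35%) and 430 lower (2.36%). Of 8 tendon and ligament genes, 5 were higher and none was lower (median log2 ratio 2.24). The Col1a1-rich cells passed mainly through Comp, which tendon shares (median 19 UMIs). The fibroblasts met no Comp condition (median 0 UMIs), so this direction was in part set by the choice of cells. Thbs4 was at 3351 CPM in the Col1a1-rich cells against 245 CPM in the fibroblasts, Tnmd at 1972 against 199 CPM and Chad, the matrix protein chondroadherin, at 2930.4 against 261 CPM. Of the markers, Cytl1 was at 629 against 30.8 CPM and Crispld1 at 184 against 16.8 CPM, and 3 of the 4 markers were higher. A few cells carried the Cytl1 of the Col1a1-rich class. Its median was 0 UMIs, with at least 5 UMIs in 24 of the 301 cells and up to 322 in a cell. Of 12 synovial and bone surface fibroblast genes, among them S100a4 by which the fibroblasts were chosen, 4 were lower and none was higher. Col3a1 was at 4532 against 5922 CPM, within 2-fold.

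At least 5 Tnmd UMIs were found in 134 Prg4/Cilp cells, 131 of them Col1a1-rich, and none in 464, of which 317 were Col2a1-rich. The contrast between them therefore holds much of the division by collagens. Against the 464, the 134 cells had 204 genes higher (1.12%) and 322 lower (1.77%). Kera was at 624 CPM in them and 0.346 CPM in the cells without Tnmd, the latter from 1 UMI. Thy1, a surface glycoprotein of fibroblasts, was at 198 and 13.5 CPM, and Scx at 197 and 12.4 CPM with 55.1% of its UMIs in 10 cells. Crabp2, a retinoic acid carrier, was at 223 and 9.68 CPM. In the 134 cells, 10 cells likewise held 48.2% of the Kera, 45.2% of the Thy1 and 45.7% of the Crabp2 UMIs. Cytl1 led the lower genes, at 279.9 and 13614 CPM. Cpe, a carboxypeptidase of secretory granules, was at 68.5 and 1788 CPM. Among the 134 cells, 83 had at least 2 Acan UMIs.

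The cells were also divided by Acan, a gene of the rule, as a description. Cells with at least 2 Acan UMIs numbered 431 and cells with none 114. In the former 194 genes were higher (1.07%) and 270 lower (1.48%). Snorc was at 3954 and 71.4 CPM, Col9a3 at 2630.4 and 105 CPM, and Mia, a secreted cartilage protein, at 444 and 6.64 CPM. The 8 leading lower genes, Cxcl5, Ccl2, Saa3, Cxcl1, Ccl7, Cxcl2, Il1rl1 and Fgl2, drew all their UMIs in the cells without Acan from 10 or fewer cells.

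Against all S100a4/Dcn fibroblasts, the 634 Prg4/Cilp cells had 362 genes higher (1.99%) and 538 lower (2.96%). Cytl1 was at 9964 against 30.8 CPM, Crispld1 at 823 against 16.8 CPM and Dlk1 at 329 against 2.80 CPM. Postn, a matrix protein of periosteum and fibrous tissue, was lower at 23.5 against 577 CPM. Sfrp4, a Wnt antagonist of periosteum, was lower at 23.8 against 368 CPM. Against the 338 comparison chondrocytes with resting zone genes, 377 genes were higher (2.07%) and 232 lower (1.28%). Gas1, though a resting zone gene by its list, was at 1327 against 53.9 CPM there.

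Cells with both genes of the rule and cells with Prg4 alone were then set beside each other, as a description, since the rule used Prg4, Cilp and Col2a1. Col2a1 exceeded Col1a1 in 189 of the 302 cells with both (62.6%), in 113 of the 266 with Prg4 only (42.5%) and in 20 of the 25 with Cilp only. At least 5 Tnmd UMIs were found in 95 cells with Prg4 only (35.7%) and in 28 cells with both (9.27%). Cytl1 was at 4223 CPM in cells with Prg4 only, 17627 CPM in cells with both and 1876 CPM in cells with Cilp only. The 25 cells with Cilp only include a cell with 230 Cytl1 UMIs and a cell with 80, so their value rests mostly on these cells. Between Prg4-only cells and cells with both, 65 genes were higher (0.357%) and 78 lower (0.429%).

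Within the Col2a1-rich class, 98 genes were higher (0.539%) and 144 lower (0.792%) with Prg4 only than with both. Clu was at 1028 CPM with Prg4 only and 4859 CPM with both, with 37.2% of its UMIs in 10 cells. Cd14 was at 21.0 and 295 CPM with 46.3% of its UMIs in 10 cells. Errfi1, a feedback inhibitor of the EGF receptor, was at 44.4 and 393 CPM, and Nt5e, the enzyme that makes adenosine outside cells, at 117 and 532 CPM. Bmp2, a BMP ligand, was at 33.9 and 171 CPM with 45.8% of its UMIs in 10 cells. Omd, the bone and cartilage proteoglycan osteomodulin, went the other way, at 856 and 60.2 CPM with 52.4% of its UMIs in 10 cells.

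The matrix lists held genes of both classes. Of 19 fibrillar and network collagens, 6 were higher in the Prg4/Cilp cells than in the comparison chondrocytes (Col1a1, Col1a2, Col3a1, Col8a1, Col14a1 and Col15a1) and 6 lower (Col9a2, Col9a3, Col10a1, Col11a2, Col12a1 and Col27a1), with a median log2 ratio of 0.51. Col1a1 was at 16746 against 4841 CPM, from 2419.9 CPM in the Col2a1-rich cells to 32433 CPM in the Col1a1-rich cells. These class levels were set by the choice, since the classes were cut by Col1a1 and the comparison chondrocytes were not. The median was 5 Col1a1 UMIs per cell in the Col2a1-rich cells and 6 in the comparison chondrocytes, which ranged up to 1806. Of 14 proteoglycans of the leucine-rich and aggregating families, 4 were higher (Dcn, Vcan, Kera and Aspn) and 3 lower (Hapln1, Omd and Epyc), with a median log2 ratio of 0.22. Dcn, the collagen-binding proteoglycan decorin, was at 8508 against 1536 CPM, and at 5751 CPM in the Col2a1-rich and 11526 CPM in the Col1a1-rich cells. Of 29 other cartilage matrix genes, 11 were higher and 9 lower (median log2 ratio 0.55). Eln, elastin, was at 45.1 against 3.20 CPM, and Tnxb, tenascin-X, at 52.3 against 1.40 CPM.

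Transcription factors of skeletal cells were counted next. Of 22, 6 were higher (Erg, Creb5, Osr2, Pitx1, Scx and Tbx15) and 3 lower (Runx2, Runx3 and Mef2c), with a median log2 ratio of 0.62. Pitx1, a factor of hindlimb identity, was at 165 against 23.3 CPM, and at 209 CPM in the Col2a1-rich and 116 CPM in the Col1a1-rich cells. Osr2, a joint-associated zinc finger factor, was at 52.3 against 3.67 CPM. Runx3, a factor of chondrocyte maturation, was at 9.12 against 59.5 CPM and Runx2, the factor of hypertrophy and bone formation, at 9.36 against 45.6 CPM. Sox9, the master factor of cartilage, did not pass, at 309 against 419 CPM, and was at 445 CPM in the Col2a1-rich and 159.9 CPM in the Col1a1-rich cells.

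Among signalling genes, ligands and inhibitors were found on both sides. Of 33 BMP and TGF-beta genes, 8 were higher (Gdf10, Bmp4, Grem1, Chrdl2, Ltbp3, Ltbp4, Inhba and Id2) and 1 lower (Bmp7), with a median log2 ratio of 0.43. Grem1 was at 278 against 25.6 CPM. Gdf10, a TGF-beta family ligand, was at 139 against 42.9 CPM, and at 251 CPM in the Col2a1-rich and 17.6 CPM in the Col1a1-rich cells. Of 22 Wnt genes, 3 secreted modulators were higher (Frzb, Dkk2 and Dkk3) and 6 genes lower (the ligands Wnt4 and Wnt5b, the enhancer Rspo3, and the inhibitors Sfrp5, Dkk1 and Notum), with a median log2 ratio of 0.00. Frzb was at 273 against 80.0 CPM, and Notum, an enzyme that inactivates Wnt ligands, at 43.0 against 222 CPM.

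Of 16 hedgehog, PTHrP and FGF genes, the ligands Fgf2 (35.8 against 4.84 CPM) and Fgf18 (13.4 against 1.33 CPM) were higher and Pth1r, Ihh and Ptch1 lower (median log2 ratio -0.36). Ptch1, the hedgehog receptor and itself a hedgehog target, was at 32.9 against 133 CPM. Pth1r, the PTHrP receptor, was at 92.4 against 554 CPM. Of 10 IGF genes, the binding proteins Igfbp4, Igfbp5 and Igfbp6 were higher and none was lower (median log2 ratio 0.27). Igfbp5 was at 560.3 against 79.5 CPM.

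Of 21 matrix proteases and inhibitors, 7 were higher (Mmp3, Adamts2, Ctsk, Timp1, Tnfaip6, Serpine2 and Serpina3n) and 2 lower (Mmp9 and Mmp13), with a median log2 ratio of 0.56. Mmp3, the protease stromelysin-1, was at 62.7 against 5.07 CPM, and at 48.2 CPM in the Col2a1-rich and 78.5 CPM in the Col1a1-rich cells. Serpine2, an inhibitor of serine proteases, was at 934 against 279 CPM. Of 9 oxidative defence genes and metallothioneins, Sod3, Gpx1, Mt1 and Mt2 were higher and Gpx3 lower (median log2 ratio 0.38). This list summed to 2188 CPM in the Col2a1-rich cells, 5111 CPM in the Col1a1-rich cells and 2536 CPM in the comparison chondrocytes. In the 6 cells with at least 5 UMIs of Cxcl5, Ccl2, Saa3 and Cxcl1 it was at 31460 CPM. None of 11 hypoxia and glycolysis genes passed in either direction (median log2 ratio -0.13), and none of the 9 immediate early and heat shock genes (median log2 ratio -0.50) did. The latter were 8 of 9 lower in the Col1a1-rich cells against the comparison chondrocytes.

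**Figure D5:**
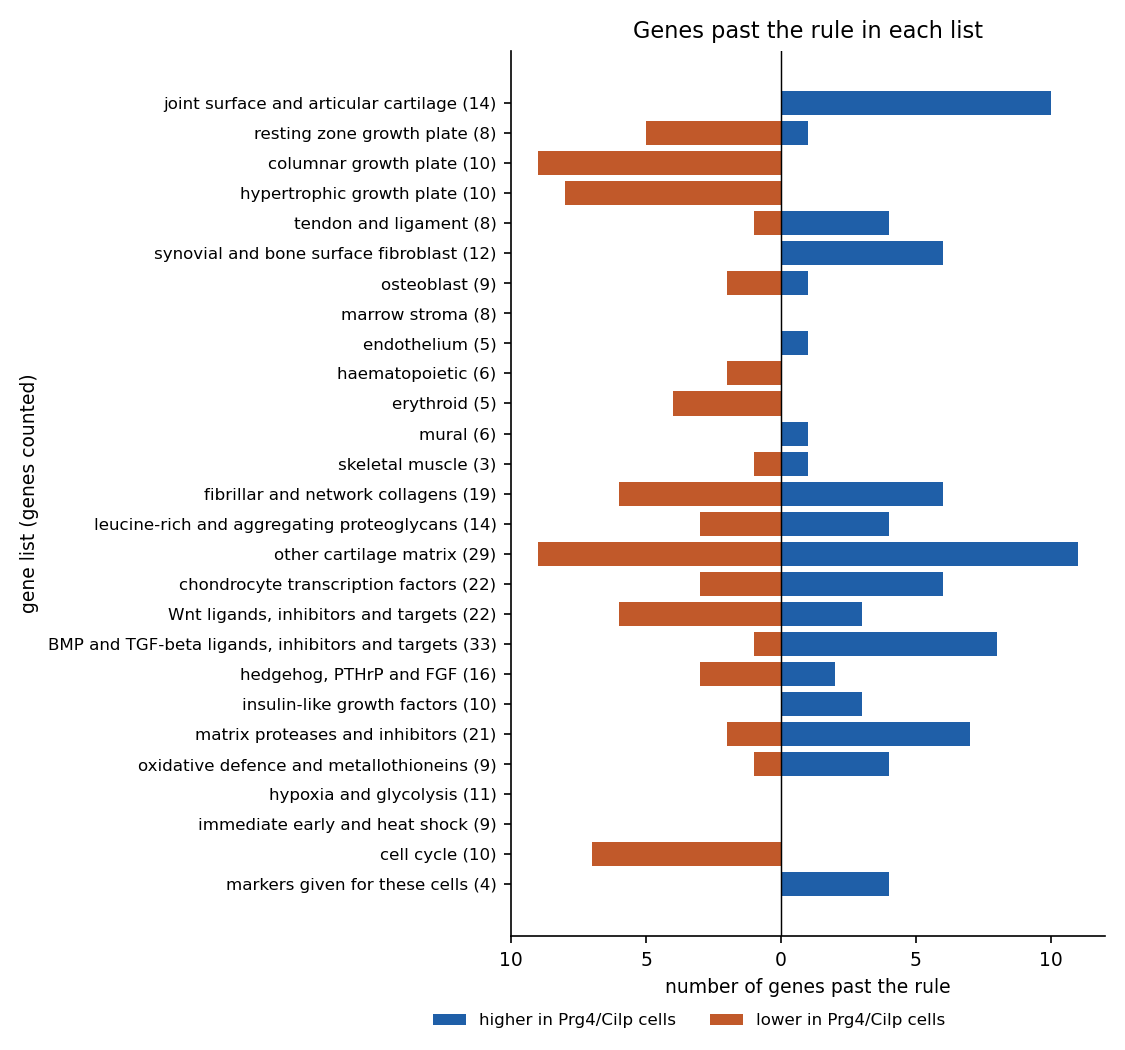
Number of genes past the rule in each of 27 lists, higher in the Prg4/Cilp cells to the right (blue) and lower to the left (orange), with the number of genes counted in brackets. The joint surface list has 10 higher and none lower, and the columnar list 9 lower and none higher. The comparison chondrocytes were chosen for the columnar genes Matn3 and Col9a1.

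Cycling genes were low against the comparison chondrocytes. Of 10 cell cycle genes 7 were lower and none was higher (median log2 ratio -1.20), with Top2a, the topoisomerase of dividing cells, at 4.32 against 45.6 CPM. At least 2 UMIs of Mki67 and Top2a together were found in 4 of 634 Prg4/Cilp cells (0.631%, exact binomial interval 0.172 to 1.61%) and in 95 of 1353 comparison chondrocytes (7.02%, 5.72 to 8.52%). The median depths were 5877 and 9188 UMIs, and the share at equal depth was not computed. The share was 1.02% (0.124 to 3.64%) in the 196 S100a4/Dcn fibroblasts. Among the comparison chondrocytes it was 3.25% (1.64 to 5.75%) in the 338 with resting zone genes and 2.41% (0.293 to 8.43%) in the 83 with Col10a1. In the other 938 it was 8.74% (7.01 to 10.7%).

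Genes of other cell types were counted to check the gate. Of 12 synovial and bone surface fibroblast genes 6 were higher than in the comparison chondrocytes and none was lower (median log2 ratio 1.45), and of 8 tendon genes 4 were higher and 1 lower (median log2 ratio 1.01). The fibroblast list summed to 1110.5 CPM in the Col2a1-rich cells, 8406 CPM in the Col1a1-rich cells, 787 CPM in the comparison chondrocytes and 12821 CPM in the S100a4/Dcn fibroblasts, with Col3a1 its most abundant gene in the Prg4/Cilp cells and none of its 12 genes at 0. The fibroblasts were chosen for S100a4, a gene of that list, so their sum was in part set by the choice. The tendon list summed to 5139.7, 9598, 3689 and 1426 CPM in the same order, with Fmod its most abundant gene and none of its 8 genes at 0. No Comp condition applied to the fibroblasts. Clec3b, the plasminogen-binding protein tetranectin, was at 101 against 0.936 CPM, and at 0.919 CPM in the Col2a1-rich and 209.7 CPM in the Col1a1-rich cells. Of 9 osteoblast genes only Col1a1 was higher and Ibsp and Sp7 lower (median log2 ratio 0.31). None of 8 marrow stroma genes passed (median log2 ratio 0.15). Plvap was the 1 endothelial gene of 5 that was higher (median log2 ratio -0.07), at 32.6 against 3.82 CPM, and Rgs5 the 1 mural gene of 6 (median log2 ratio -0.01). Of 6 haematopoietic genes 2 were lower (median log2 ratio -0.64), of 5 erythroid genes 4 (median log2 ratio -2.29), and of 3 skeletal muscle genes 1 was higher and 1 lower (median log2 ratio -0.37). The erythroid list summed to 471 CPM in the Prg4/Cilp cells and 2471 CPM in the comparison chondrocytes. Among the latter it was at 532 CPM in those with resting zone genes, 478 CPM in those with Col10a1 and 3465 CPM in the rest. Ptprc, the pan-leukocyte gene CD45, and the muscle genes Acta1 and Ckm had no UMI in the Prg4/Cilp cells. The part of cells or free mRNA of other types in these values was not tested. The rule itself limits endothelial and haematopoietic genes in the Prg4/Cilp cells.

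The sorted reporter was thinly covered. The H2B-GFP transcript was at 41.3 CPM in the Prg4/Cilp cells, 14.0 CPM in the comparison chondrocytes, 181 CPM in the S100a4/Dcn fibroblasts and 24.3 CPM in the haematopoietic cells. It had no UMI in 492 of the 634 Prg4/Cilp cells. Pdgfra, the gene whose locus drives the reporter, was at 18.5 CPM in the Prg4/Cilp cells against 7.57 CPM and 67.1 CPM in the comparison chondrocytes and fibroblasts. It had no UMI in 570 Prg4/Cilp cells.

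The Prg4/Cilp cells were nearly absent from the other libraries. With at least 1500 genes per cell, the rule found 1 cell of 2382 in metaphyseal replicate 1 (0.0420%, 0.00106 to 0.234%) and 1 of 2004 in replicate 2 (0.0499%, 0.00126 to 0.278%). Comparison chondrocytes numbered 41 and 38 there. The cell of replicate 1 had 22 Prg4, 48 Cilp, 20 Col2a1 and 1 Col1a1 UMIs, and that of replicate 2 had 29 Prg4, 0 Cilp, 127 Col2a1 and 0 Col1a1 UMIs. Neither had a Cytl1 UMI. The sort, the dissection and the depletion differ between the libraries. The study's methods name 1 version of the droplet kit, while the labels do not say which version each library used. The parts of the sort, the dissection, the depletion and any difference in chemistry cannot be told apart. The Pdgfra-GFP+ library shared 9 and 10 kept barcodes with the metaphyseal libraries, none of them a Prg4/Cilp cell.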

How the data were processed

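Droplet scRNA-seq of 3 libraries was used. The deposited UMI counts per gene and barcode were made by the authors and are neither filtered nor normalized. The submitters' processing notes name fastp 0.20, STAR 2.7.3a with STARsolo and genome build mm10. No column of other samples was used.

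A barcode was kept if it had 1000 or more genes, or 1500 or more for the metaphyseal cells, and if mitochondrial UMIs made up no more than 15% and ribosomal protein UMIs no more than 30% of its total. Genes needed a UMI in more than 10 kept cells. UMIs were summed over cells and divided by their total (CPM), with exact 95% Poisson intervals. Ratios of sums have exact conditional intervals and shares exact Clopper-Pearson intervals. All cover counting error only. Barcodes under 100 UMIs held 7.24% of the UMIs of the Pdgfra-GFP+ library, which measures free mRNA. Haematopoietic cells (at least 5 UMIs of Laptm5 and Tyrobp) served as background. Scrublet, run through scanpy 1.11.5, called 168 cells (1.49%, with 8.99% expected) doublets, which were kept. Work was done in python 3.11.15 with numpy 2.4.6, scipy 1.17.1 and pandas 2.3.3. The counting of changed genes was tested on simulated Poisson counts of summed UMIs, without spread between cells. That simulation therefore says nothing about genes carried by a few cells.

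The members, the gene lists, the classes and the markers were chosen with earlier results of these data known. Genes named in the main comparison were the 15 largest and 15 smallest log2 ratios among called genes with at least 50 CPM in the higher group, without genes of the rules, predicted, mitochondrial and ribosomal protein genes, besides the markers and list members. For class contrasts the limits were 8 genes a direction and 100 CPM. Genes named outside this rule were chosen after their values were seen.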

Additional observations from a re-analysis of the deposited data

How the results depend on the processing

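Settings of the gates, filters and call rule were varied in 17 ways, 3 of them chosen after seeing the data (Col2a1-rich cells only, endothelial and haematopoietic limits on the comparison chondrocytes, and the 10 richest cells of each gene left out). The number of genes called was sensitive to the CPM added. With 50 CPM added 141 genes were higher and 79 lower, with 1 CPM added 984 and 733, and among genes with at least 50 CPM 223 and 141, against 361 and 241. The 333 Col2a1-rich cells alone gave 235 higher genes, with 113 cells of Prg4 only and 189 with both. Cells with Cilp only numbered 12 with at least 10 UMIs of Prg4 and Cilp and 13 after thinning to 2000 UMIs, against 25. Cells with both numbered 190 with at least 2 Acan UMIs and 201 after thinning, against 302. Of 33 named genes, 7 fell under 2-fold in some alternative: Cxcl5, Ccl2, Saa3, Hba-a1, Hbb-bt, Kera and Ptn. The log2 ratio of Ccl2 turned to -0.059 in the Col2a1-rich cells and to -0.069 without the 10 richest cells, where by construction its few rich cells are gone. Kera (0.33) and Ptn (0.61) were low in the Col2a1-rich cells.

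No paired analysis was possible because gene levels were compared within 1 library and the Pdgfra-GFP+ group has 1 sample. Depth limits low genes most: a gene under a few UMIs in a class is bounded only by its counting interval. Spread between animals was not measured.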
